A study of Mus musculus with 17 samples.

Results

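The insulin-producing beta cells of the adult control pancreas were described cell by cell, in 3 libraries that serve as replicates. A control cell was taken as a beta cell where its Ins2 value reached 3000, was at least 3 times each of its Gcg, Sst and Ppy values, and its Prss2 value stayed under 1500. These values are on the scale the authors deposited, unique molecular identifiers (UMIs, each standing for 1 captured RNA molecule) per 100000 of the cell's UMIs outside 8 genes, mostly islet hormones. The rule found 359 beta cells among 587 control cells, of 2999 cells in the whole series: 209 in control library 1, 129 in control library 2 and 21 in control library 3.

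All mice in the groups used here carried Ngn3-Cre and a Rosa-RFP reporter. Ngn3 is switched on in endocrine progenitors, so the red label marks endocrine cells of every type and not beta cells alone. Control mice were adult males given citrate buffer at 2 months of age. They were compared with age-matched males given a single intraperitoneal dose of 200 mg/kg streptozotocin (STZ, a toxin that enters beta cells through the glucose transporter GLUT2) after an overnight fast, and carrying insulin implants. STZ mice were taken on days 6, 12, 30 and 42 and in months 2, 5 and 9, where the implant of the month 9 group was interrupted over the final 2 months. Untreated pups of postnatal days 12 (P12, 2 libraries) and 21 (P21, 1 library) gave a second comparison. RFP-positive cells were sorted, picked singly by mouth pipette and read with a modified STRT-seq protocol, in which only cDNA with a good Gapdh signal was kept. Nothing in the labels says that libraries of a group came from separate animals, so p-values below measure the spread between these libraries only.

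Beta cells store insulin in dense granules and release it when glucose, taken up through Slc2a2 (GLUT2) and metabolised, raises ATP. Because proinsulin is folded in the endoplasmic reticulum (ER), beta cells carry a large ER folding machinery whose genes respond to misfolded protein. Mature beta cells are known to express Ucn3, a peptide hormone released with insulin, and glucose and depolarisation are known to switch on immediate early genes such as Fos for short periods.

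Genes whose levels moved together between control beta cells, described further on, fell into sets around Hspa5 (BiP, the main ER chaperone) and around Fos. Promoters of the set members that hold a known response element are shown because they let the co-varying genes be seen at the sequence level. The windows are the 250 bases before the RefSeq start in GRCm38.p6, printed 5′ to 3′ on the gene's strand. The capitals in the first 3 mark the ER stress response element, CCAAT and CCACG with 9 bases between them, which in Creld2 lies on the opposite strand.
Hspa5, chr2:34771840-34772089, plus strand: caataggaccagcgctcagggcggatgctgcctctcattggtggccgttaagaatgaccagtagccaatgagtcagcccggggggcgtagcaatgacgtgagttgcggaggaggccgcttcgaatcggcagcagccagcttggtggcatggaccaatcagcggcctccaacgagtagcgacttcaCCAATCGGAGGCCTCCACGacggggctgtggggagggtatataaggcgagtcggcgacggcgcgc
Pdia6, chr12:17266339-17266588, plus strand: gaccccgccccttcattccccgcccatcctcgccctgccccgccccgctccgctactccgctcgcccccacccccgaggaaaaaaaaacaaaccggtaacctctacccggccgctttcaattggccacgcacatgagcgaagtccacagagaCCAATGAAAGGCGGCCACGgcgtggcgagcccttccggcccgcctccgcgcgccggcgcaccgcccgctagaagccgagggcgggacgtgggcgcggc
Creld2, chr15:88819396-88819645, plus strand: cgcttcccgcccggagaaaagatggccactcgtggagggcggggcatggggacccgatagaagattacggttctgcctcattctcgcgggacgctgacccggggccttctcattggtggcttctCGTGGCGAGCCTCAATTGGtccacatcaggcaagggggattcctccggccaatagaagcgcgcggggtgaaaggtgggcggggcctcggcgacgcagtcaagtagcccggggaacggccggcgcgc
The capitals in the next pair mark the cAMP response element TGACGTCA, which reads the same on both strands.
Dusp1, chr17:26508473-26508722, minus strand: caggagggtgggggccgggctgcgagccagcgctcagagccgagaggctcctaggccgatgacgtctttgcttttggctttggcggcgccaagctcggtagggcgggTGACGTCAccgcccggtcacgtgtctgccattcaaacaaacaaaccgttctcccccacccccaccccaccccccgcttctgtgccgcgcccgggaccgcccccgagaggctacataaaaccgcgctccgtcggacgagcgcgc
Btg2, chr1:134079156-134079405, minus strand: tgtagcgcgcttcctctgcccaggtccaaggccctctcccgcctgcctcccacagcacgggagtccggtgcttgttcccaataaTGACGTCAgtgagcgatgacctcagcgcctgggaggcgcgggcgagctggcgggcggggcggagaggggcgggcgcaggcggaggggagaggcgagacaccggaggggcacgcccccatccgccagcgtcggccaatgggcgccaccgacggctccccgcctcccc
The ER element lay at bases -65 to -47 from the start in Hspa5, -98 to -80 in Pdia6 and -126 to -108 in Creld2. The cAMP element lay at -143 to -136 in Dusp1 and -166 to -159 in Btg2. Both strands were searched over 250 bases before to 50 after the start. The ER element was found for 37 of 27025 genes (0.137%) and for 3 of the 15 genes of the Hspa5 set with a RefSeq promoter, out of 21 in that set counting Hspa5. The cAMP element was found for 549 genes (2.03%) and for 2 of the 5 matched genes among Fos, Jun and the Fos set, out of 7. A serum response element core, ATATTA between CC and GG, was found for 21 genes (0.0777%) and for 0 of those 5. Of 13 matched genes in a set around Ucn3, out of 17, 0 held any of these 3 motifs. A match is a description of letters and says nothing about binding.

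Beta cells made up 70.8%, 47.8% and 95.5% of the cells in control libraries 1, 2 and 3. Of the 228 control cells outside the rule, 198 had Ins2 under 3000, 24 failed the ratio to another hormone and 6 failed only on Prss2. The lowest Ins2 inside the rule was 3439 and the highest below it 2991, while the lowest ratio inside was 3.49 and the highest outside 2.88. The highest Prss2 inside was 1241 and the lowest outside 2073. Per beta cell, the median total was 61046, 57361 and 69993 UMIs in the 3 libraries (all cells between 11179 and 178171). No cell name was used in more than 1 library, and no doublet caller was run. Measures that depend on depth were taken after every cell had been thinned at random to 18536 UMIs outside the hormone genes, which kept 323 beta cells (182, 121 and 20) and left out 36 shallower ones. Control library 3 therefore rests on few cells throughout.

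The cells carried the beta-cell markers that the rule did not use. Ucn3 had a median of 116 in control 1 (range 0 to 394), 101 in control 2 (0 to 366) and 90.3 in control 3 (0 to 169). Slc2a2 had medians of 81.6 (0 to 234), 65.8 (0 to 246) and 59.3 (11.5 to 99.8). G6pc2, the islet glucose-6-phosphatase subunit that works against glucokinase, had medians of 626 (0 to 1207), 425 (8.01 to 868.98) and 508 (6.90 to 1018). The medians of these 3 genes lay close together across the libraries, with wide and overlapping ranges. Ins1 had medians of 13364, 12641 and 11675, and Iapp, the co-secreted amylin peptide, had medians of 7756, 7313 and 7136. Ins2, on which the cells were chosen, had medians of 14919, 15217 and 13183. Together Ins1, Ins2 and Iapp took a median 26.3%, 25.7% and 23.9% of a cell's UMIs, between 4.89% and 56.6% over all cells. No UMI of Mafa, a maturity transcription factor, was counted in any kept cell of the series, so it could not be used.

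Glucagon-high control cells, with Gcg in the place of Ins2 in the same rule, gave the background for these markers. At the thinned depth, a Ucn3 UMI was present in 98.4% of beta cells in control 1 (exact 95% interval 95.3 to 99.7%) and 95.9% in control 2 (90.6 to 98.6%). In glucagon-high cells of those libraries it was present in 13.0% (2.78 to 33.6%) and 14.8% (4.19 to 33.7%). Slc2a2 was present in 98.9% and 95.9% of beta cells against 4.35% and 11.1% of glucagon-high cells. These shares stand far apart at similar depth, since the median UMIs outside the hormone genes were 47324 and 42514 in beta cells and 43390 and 33919 in glucagon-high cells. A G6pc2 UMI was present in all thinned beta cells of both libraries and also in 82.6% and 59.3% of glucagon-high cells, but the mean thinned UMIs were 117 and 81.1 against 2.22 and 2.26. Intervals cover counting error only.

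**Figure D1:**
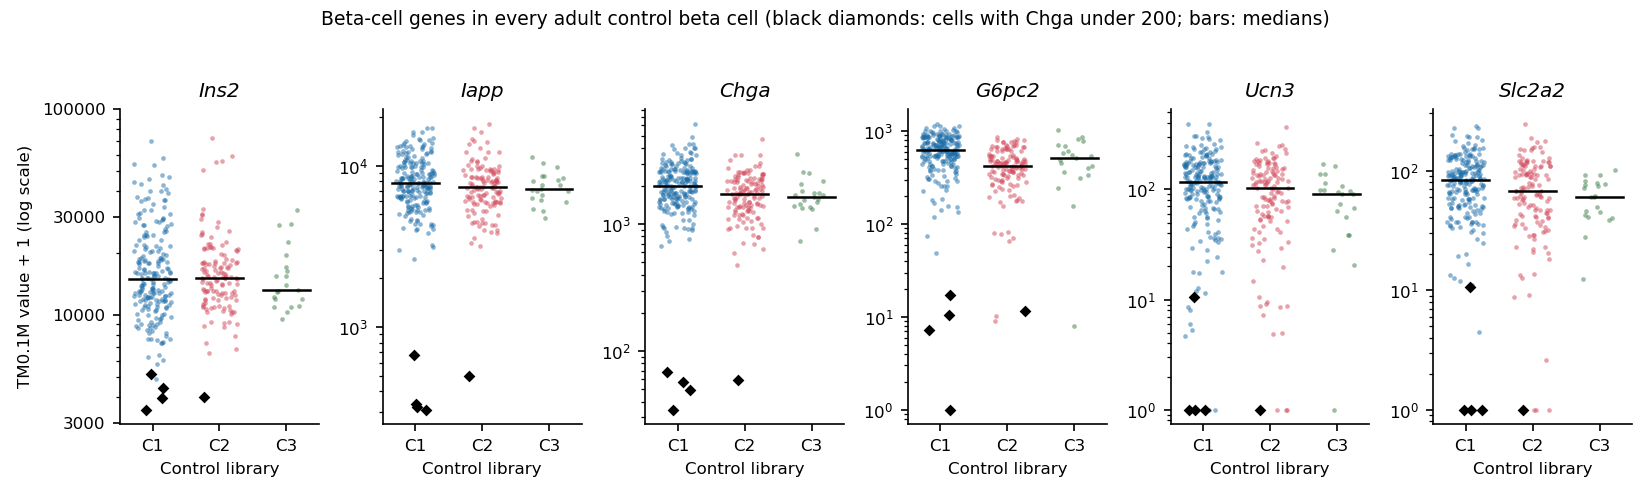
Each point is 1 adult control beta cell; the vertical axes give the deposited value plus 1 on a log scale, the horizontal axes the 3 control libraries (C1 to C3), bars the library medians and black diamonds the cells with Chga under 200. The 5 diamonds sit at the bottom of Ins2, Iapp and Chga, below every other cell for Iapp and Chga.

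A small number of cells met the rule while lacking other beta-cell features. In 5 cells (4 in control 1 and 1 in control 2), Chga, a granin protein of endocrine granules, did not exceed 67.4, whereas the lowest value among all other cells was 673, 479 and 742 in the 3 libraries. Their Ins2 lay between 3439 and 5197, their Iapp between 307 and 666 and their Ucn3 between 0 and 9.61. Of these cells, 4 were rich in the ductal genes Spp1 (1935 to 4151) and Clu (911 to 1474), and 1 was rich in the antigen-presentation genes Cd74 (1521) and H2-Aa (1533). These cells go against the label of the group, so counts that rest on them are also given without them; that alternative and the next were chosen after seeing the data. A wider group of 15 cells (6, 8 and 1) had G6pc2 under 100, among them those 5 cells. Of the remaining ones, several were rich in the peptide YY gene Pyy, including the single such cell of control 3 with Pyy at 4419, G6pc2 at 6.90 and no Ucn3 UMI.

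RNA of other pancreatic cells was present in the beta cells at levels that differed between libraries. Summed acinar markers (digestive enzymes) had a median of 1134, 2404 and 4423 in controls 1, 2 and 3, with Amy2a5 at 0, and reached 1000 in 110, 127 and 21 cells. Summed ductal markers had medians of 166, 131 and 124 and reached 1000 in 4, 2 and 0 cells, and summed immune markers had medians of 10.04, 7.11 and 2.88. Endothelial, stromal and blood-cell markers had a median sum of 0, with 6 of 14 genes at 0 in all beta cells (Cdh5, Kdr, Col1a2, Col3a1, Pdgfra and Pdgfrb). Among the other islet hormones, Gcg had medians of 93.4, 108 and 439, Sst of 13.3, 18.3 and 1.77, and Ppy of 54.1, 51.3 and 216. Within a library these levels moved with the index pool, a name used here for cells that share a prefix in their raw file names. Over the 4 pools of control 1, the median Prss2 of beta cells ranged from 20.5 to 216 and the median Gcg from 25.9 to 209. The part of this RNA in the cell-to-cell results was not tested, except where values within pools or without hormone-rich cells are given.

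Variation between cells was then measured gene by gene, as the coefficient of variation (SD over mean) that remains after counting error is taken away. A gene was called variable where this coefficient was at least 0.7 in each of the 3 libraries, among 2715 genes with a mean of at least 1 thinned UMI per cell in each. By that rule 703 genes (25.9%) were variable, but the share depended on the level: 51.2% of genes with a mean of 1 to 2 thinned UMIs and 0.667% of genes with 16 or more. At a depth of 9268 UMIs 88 genes were variable, 41 of them shared with the 703, and a new random thinning to the same depth gave 735, of which 425 were shared, so neither the number nor the low-level genes in it are firm. Among the 861 genes with a mean of at least 3, 19 genes were variable (2.21%), and these are described first.

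These genes included Gpx3, Txnip, Dapl1, Siglec1, Mt2, Fos, Pde4dip, Mt1, Cox6a2, Gadd45g, Ly6e, Fkbp11, Krt18, Zdhhc2, S100a1, Snrpg, Enpp2 and Defb1. Of the 19, 4 belong to a list of 13 oxidative stress genes at this level: Gpx3, a secreted glutathione peroxidase; Txnip, the glucose-induced inhibitor of thioredoxin; and the metallothioneins Mt1 and Mt2, which bind zinc and other metals. Gpx3 had a coefficient of 2.06, 2.05 and 2.20 in controls 1, 2 and 3. Its median was 7.66, 5.14 and 10.8, its highest cell 569, 531 and 430, and 56, 29 and 1 cells had no UMI. Gpx3 was thus low in most cells and high in a few, and the top 10% of cells held 62.3% of its UMIs in control 1 and 61.6% in control 2.

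Txnip varied in the same manner but less steeply, with coefficients of 1.52, 1.61 and 1.26. Without hormone-rich cells, defined below, these coefficients were 1.51, 1.17 and 1.04. The median of Txnip was 35.1 (0 to 693) in control 1, 24.7 (0 to 442) in control 2 and 23.02 (0 to 200.1) in control 3, and the top 10% of cells held 46.4% and 49.9% of its UMIs in controls 1 and 2. In the cells with the most Txnip, 6 in control 2 and 1 in control 3, Pyy had medians of 689 and 4419, against 19.5 and 116 in the rest. In the top 9 cells of control 1 the Pyy median was 42.2 against 26.8. Mt1, at a median of 238.5, 127 and 127, varied with coefficients of 0.87, 0.89 and 0.93. Mt2, at 62.8, 34.8 and 30.1, varied with coefficients of 1.07, 1.11 and 1.02. The medians of both metallothioneins were highest in control 1. Cox6a2, a muscle-type subunit of complex IV on the maturity list, varied with coefficients of 0.86, 1.05 and 0.92.

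**Figure D2:**
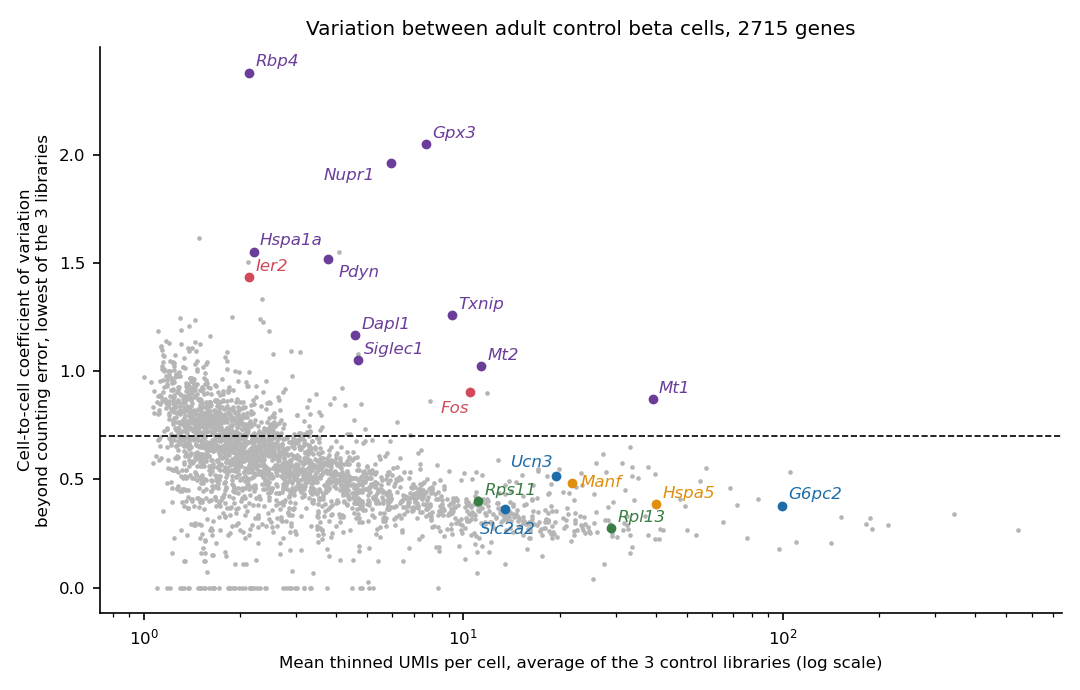
Each grey point is 1 of 2715 genes in adult control beta cells, with the mean thinned UMIs per cell on a log horizontal axis and the lowest coefficient of variation beyond counting error over the 3 libraries on the vertical axis; coloured points are stress and other variable genes (purple), immediate early genes (red), ER genes (orange), maturity genes (blue) and ribosomal protein genes (green), and the dashed line is the limit of 0.7. Low genes crowd above the line at the left, while Gpx3, Txnip, Mt2, Fos and Mt1 lie above it at levels where few genes do.

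The 20 genes with the highest coefficient at any level were led by Rbp4, Gpx3, Nupr1, Alpk2, Hspa1a, Akap5 and Pdyn, followed by Fam159b, Ier2, Atp11a, Txnip, C1qa, Tmpo, Ckb, 1500012F01Rik, Uchl5, Ing2, Snhg18, Rasd1 and Twistnb. Rbp4, a retinol carrier that is also a delta-cell marker, had medians of 0, 0 and 1.47 and highest cells of 201, 556 and 106, and its coefficient was 3.10, 4.26 and 2.38. The top 10% of cells held 83.8% and 90.9% of its UMIs in controls 1 and 2. Nupr1, a stress-induced nuclear protein downstream of the factor ATF4, had medians of 2.31, 3.88 and 19.6 and highest cells of 173, 229 and 620, with coefficients of 1.96, 2.23 and 2.09. Rbp4 and Nupr1 were each near 0 in most cells of controls 1 and 2 and far above that in a few. Pdyn, which encodes the opioid precursor prodynorphin, reached 108, 689 and 190 over medians of 0, 3.42 and 2.94. Hspa1a, an inducible heat shock protein whose near-identical copy Hspa1b can share its reads, had coefficients of 1.55, 1.59 and 1.79. Of the 20 genes, 20 stayed past the limit within index pools and without the Chga-low cells, 19 at a depth of 9268 UMIs and 18 without hormone-rich cells, those with a value of 500 or more for Prss2, Pyy or any of the 3 hormones in the rule. The genes lost without hormone-rich cells were Rbp4 and Snhg18, both with a coefficient of 0 over the 11 cells left in control 3. The mean of Rbp4 in control 2 went from 3.35 to 0.909 thinned UMIs.

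Immediate early genes, the fast transcriptional response to stimulation, varied between cells in every library. Of 7 such genes that passed the filter, 6 were variable, against 25.9% of all genes tested. Of the 2 with a mean of at least 3 thinned UMIs in each library, 1 was, Fos, against 2.21% of all genes at that level. The other variable members fell below that mean in at least 1 library, where more genes pass the limit. Fos ranged from 0 through a median of 78.2 to 869.95 in control 1, from 0 through 27.0 to 194 in control 2, and from 1.88 through 8.40 to 133 in control 3. Cells with no Fos UMI numbered 8, 17 and 0. In each library, cells with little or no Fos stood beside cells with over 100, although the median itself differed between the libraries. Jun, its partner in the AP-1 factor, had medians of 24.8, 15.8 and 2.32 and highest cells of 732, 252 and 97.01. Coefficients were 0.90, 1.05 and 1.26 for Fos, 1.08, 1.35 and 2.55 for Jun and 1.44, 2.04 and 1.63 for Ier2. They were 1.00, 1.64 and 3.10 for the transcription factor Egr1, 1.39, 1.89 and 1.04 for the kinase phosphatase Dusp1, and 0.98, 1.01 and 1.16 for Junb. Btg2, an antiproliferative gene, missed the limit in controls 1 and 2 with 0.68 and 0.56. The list as a whole took a median 0.226%, 0.128% and 0.075% of a cell's UMIs and at most 2.60%, 0.979% and 0.717%. Fos was also counted in glucagon-high cells: its mean was 17.5 and 8.69 thinned UMIs in beta cells and 43.3 and 25.04 in glucagon-high cells of controls 1 and 2.

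The count of variable genes differed between the lists of stress genes. Of 23 genes for ER folding and the unfolded protein response that passed the filter, 0 were variable. Of these, 17 had a mean of at least 3 thinned UMIs, a level at which 2.21% of all genes were variable. The UMIs of the ER list together took a median 1.83%, 1.94% and 1.98% of a cell's total. Hspa5 had a median of 171 (35.2 to 488) in control 1, 207 (0 to 704) in control 2 and 198 (108 to 518) in control 3, so that nearly every cell expressed it. Manf, a secreted ER stress protein, had medians of 99.8, 97.1 and 114. Of 6 ATF4 and CHOP targets, 3 were variable: Nupr1, the transcription factor Atf5 (1.00, 1.33 and 1.42) and the mitochondrial folate enzyme Mthfd2 (1.05, 1.07 and 0.95). Of 12 heat shock genes, 3 were variable (Hspa1a, Dnajb4 and Hspa4l). Of 6 p53 and DNA damage genes, 4 were variable (Gadd45b, Cdkn1a, Gadd45g and Ccng1), with 1.83, 2.73 and 0.90 for the cell-cycle inhibitor Cdkn1a. Ddit3 (CHOP) and Atf3 stayed below the filter. Counts of members are set against the 25.9% of all tested genes and, since they follow the level of the genes, single out no list by themselves.

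Genes known for beta-cell identity were counted in the same way. Of 16 maturity genes that passed the filter, 2 were variable (Cox6a2 and the cation channel Trpm5), and of 17 granule and hormone-processing genes, 1 was. Among 11 beta-cell transcription factors, 4 (36.4%, against 25.9% of all genes) were variable (Tshz1, Nkx2-2, Foxa2 and Insm1). Of 77 ribosomal protein genes, 0 were variable. The median over members of the lowest coefficient was 0.995 for the immediate early list, 0.386 for the ER list and 0.292 for the ribosomal list, against 0.561 over all genes tested. The lists were not matched for level, and the coefficient falls with it: its median was 0.857 for genes with a mean of 1 to 2 thinned UMIs and 0.351 for those with 16 or more.

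Next, genes that rose and fell together from cell to cell were sought by Pearson correlation of log2(UMIs per 100000 + 1) at the thinned depth. A gene was counted with an anchor gene where the correlation was at least 0.3 in the same direction in each of the 3 libraries, over 182, 121 and 20 cells. The cells of a library share its preparation and its ambient RNA, so that these correlations are descriptions. Of 12 anchor genes chosen, 8 were expressed enough.

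Fos was accompanied by 5 of 2714 genes (0.184%) and opposed by 0 (0.0%), and all 5 belong to the immediate early response. Correlations in controls 1, 2 and 3 were 0.46, 0.57 and 0.68 for Junb, 0.47, 0.49 and 0.49 for Egr1, and 0.32, 0.38 and 0.39 for Dusp1. Ier2 had 0.42, 0.45 and 0.49, and Btg2 had 0.32, 0.30 and 0.41. Jun followed Fos in controls 1 and 2 (0.54 and 0.57) but reached only 0.24 over the 20 cells of control 3. In the 25% of cells with the most Fos (45, 30 and 5 cells), the mean of Jun was 13.8, 9.77 and 4.4 thinned UMIs, against 2.47, 1.23 and 1 in the 25% with the least. Junb rose from 1.93 to 6.84, from 0.6 to 4.77 and from 1.4 to 4.8 between those cells, and Egr1 from 0.689 to 3.56, 0.7 to 5.67 and 0 to 4.2. These means restate the correlations by which the genes were chosen. Of the 5 genes, 5 passed when values were centred within index pools, 4 without the Chga-low cells, and 3 each without hormone-rich cells and with a new random thinning. The Fos set includes Dusp1 and Btg2, whose promoters are shown above.

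Hspa5 was accompanied by 20 of 2714 genes (0.737%) and opposed by 1 (0.0368%). Most of the 20 act in the ER: the disulfide isomerases Pdia3, Pdia6 and P4hb, the co-chaperones Dnajb9 and Sdf2l1, the stress proteins Manf and Creld2, and members of the translocation, signal peptidase and glycosylation machinery (Sec61b, Spcs2, Ssr4, Ostc and Rpn2). The others were Tmed2, Tmed3, Selk, Vimp, H13, Prnp, Ubb and Tmem66, and the opposed gene was RP23-8J15.4. Correlations were 0.48, 0.59 and 0.77 for Manf, 0.46, 0.67 and 0.59 for Pdia3, and 0.44, 0.49 and 0.73 for Pdia6. Creld2 had 0.34, 0.39 and 0.61, and P4hb had 0.53, 0.71 and 0.35. From the lowest to the highest 25% of cells by Hspa5, Hspa5 itself rose from 17.4 to 52.98, 22 to 63.4 and 23.8 to 79.4 thinned UMIs. Manf rose with it from 12.5 to 26.5, 13.5 to 28.5 and 14.6 to 46.2, and Pdia6 from 13.5 to 24.4, 15.8 to 30.9 and 15.6 to 45.2. These are the values behind the correlations: each gene was higher in the upper 25% of cells in all 3 libraries, by a smaller factor than Hspa5 itself. Hspa5, Pdia6 and Creld2 are the members with the ER element shown above. Without the Chga-low cells, the count around Hspa5 was 11, with Manf at 0.55, 0.50 and 0.77.

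Ucn3 was accompanied by 16 of 2714 genes (0.59%) and opposed by 3 (0.111%). Those that rose with it included G6pc2 (0.56, 0.52 and 0.83), Slc2a2 (0.37, 0.49 and 0.63), Ero1lb, the ER oxidase for proinsulin (0.46, 0.52 and 0.70), Sytl4, the granule-docking protein granuphilin (0.49, 0.42 and 0.68), and Hadh, a fatty acid oxidation enzyme (0.46, 0.49 and 0.56). The rest were Tmem215, Prss53, Cd63, Spc25, Trpm5, Emb, Papss2, Prlr, Wbp5, Atp2a2 (the ER calcium pump) and Slc30a8, the granule zinc transporter. The 3 opposed genes were Gpx3 (-0.41, -0.52 and -0.43), Rbp4 (-0.35, -0.48 and -0.47) and Snhg18 (-0.32, -0.31 and -0.36). From the lowest to the highest 25% of cells by Ucn3, the mean of Gpx3 fell from 19.8 to 2.69 thinned UMIs in control 1, from 20.2 to 1.6 in control 2 and from 15.6 to 7 in control 3. Rbp4 fell from 5.16 to 0.444, 11.5 to 0.167 and 3.2 to 1, while G6pc2 rose from 90 to 123, 58.1 to 90.3 and 86.4 to 97.8. These means restate the correlations by which the genes were chosen. The gene for peptide YY, a marker of pancreatic polypeptide cells, moved with them: Pyy had -0.22, -0.50 and -0.80 against Ucn3 and 0.28, 0.50 and 0.52 against Gpx3. In the cells with the most Gpx3, 6 in control 2 and 1 in control 3, Pyy had medians of 652 and 4419, against 19.5 and 116 in the rest; in the top 9 cells of control 1 it was 25.1 against 26.9. Without hormone-rich cells, which left 171, 99 and 11 cells, Gpx3 against Ucn3 gave -0.40, -0.45 and -0.08 and Rbp4 -0.25, -0.27 and 0.08. In control 3 this setting left out all 7 beta cells of 1 index pool, where Gcg was at least 932.

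How far these relations rest on a few cells differed between the genes. Without hormone-rich cells, 13 genes reached 0.3 with Ucn3 in all 3 libraries, 7 of them among the 19 counted with all cells. By rank (Spearman), 0 genes did. Without the cells with G6pc2 under 100, of which 13 entered the correlations (4, 8 and 1), 1 gene did, and 0 of the 19 were kept. G6pc2 against Ucn3 had rank correlations of 0.24, 0.29 and 0.03, and without those cells Pearson values of 0.36, 0.32 and -0.05. The positive value in control 3 came with the single Pyy-rich cell. Gpx3 against Ucn3 kept rank correlations of -0.45 and -0.49 in controls 1 and 2, and Pearson values of -0.51 and -0.48 without the low cells, but -0.04 and 0.22 in control 3. The opposite movement of Gpx3 and Ucn3 was thus measured in both large libraries with and without the low cells, and could not be seen in the small one without 1 cell. Rbp4 had Pearson values of -0.38, -0.47 and 0.00 without those cells. Rank correlations were 0.43, 0.59 and 0.63 for Junb with Fos and 0.50, 0.55 and 0.75 for Manf with Hspa5.

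**Figure D3:**
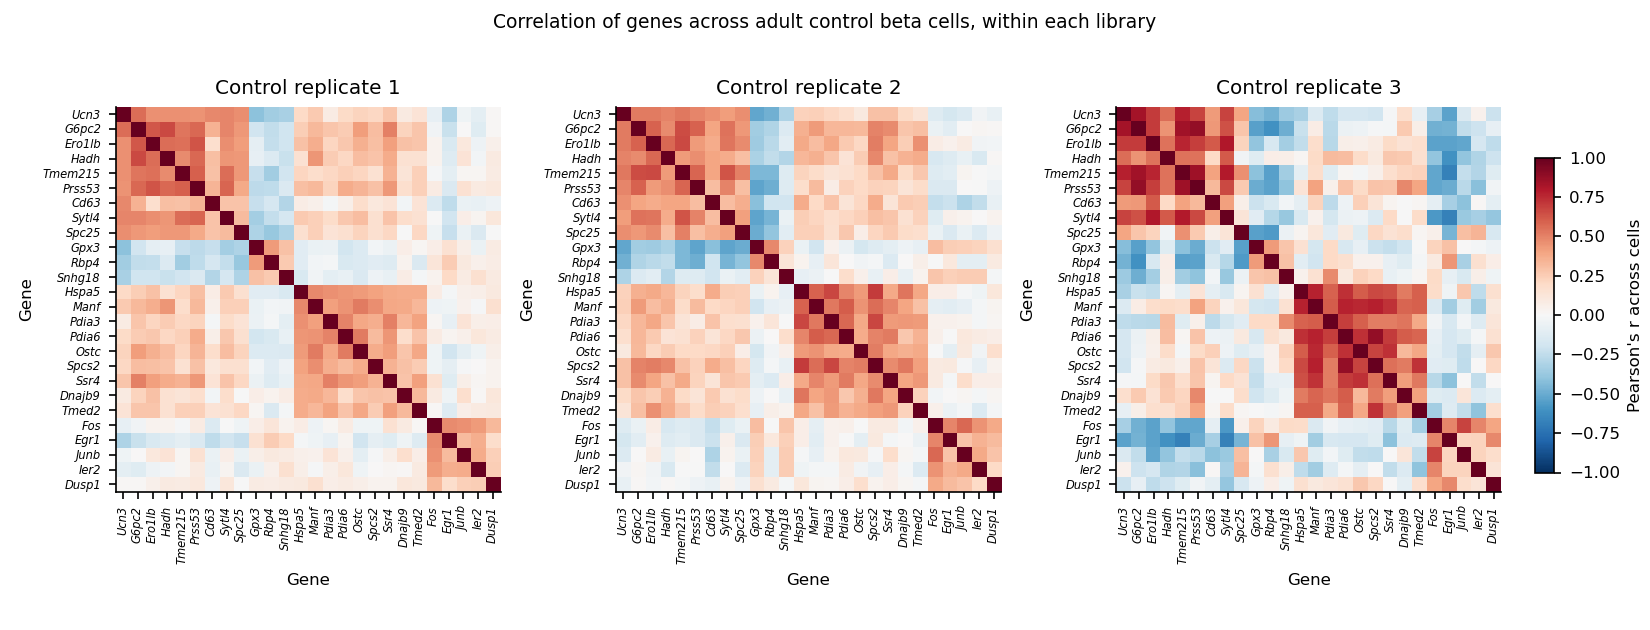
Heat maps of the Pearson correlation between 26 genes over adult control beta cells, 1 panel per control library, on log2(UMIs per 100000 + 1) at the thinned depth; red is positive and blue negative correlation. The Ucn3, Hspa5 and Fos sets form blocks on the diagonal, and Gpx3 and Rbp4 are negative against Ucn3 (-0.41 and -0.35 in control 1, -0.52 and -0.48 in control 2).

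**Figure D4:**
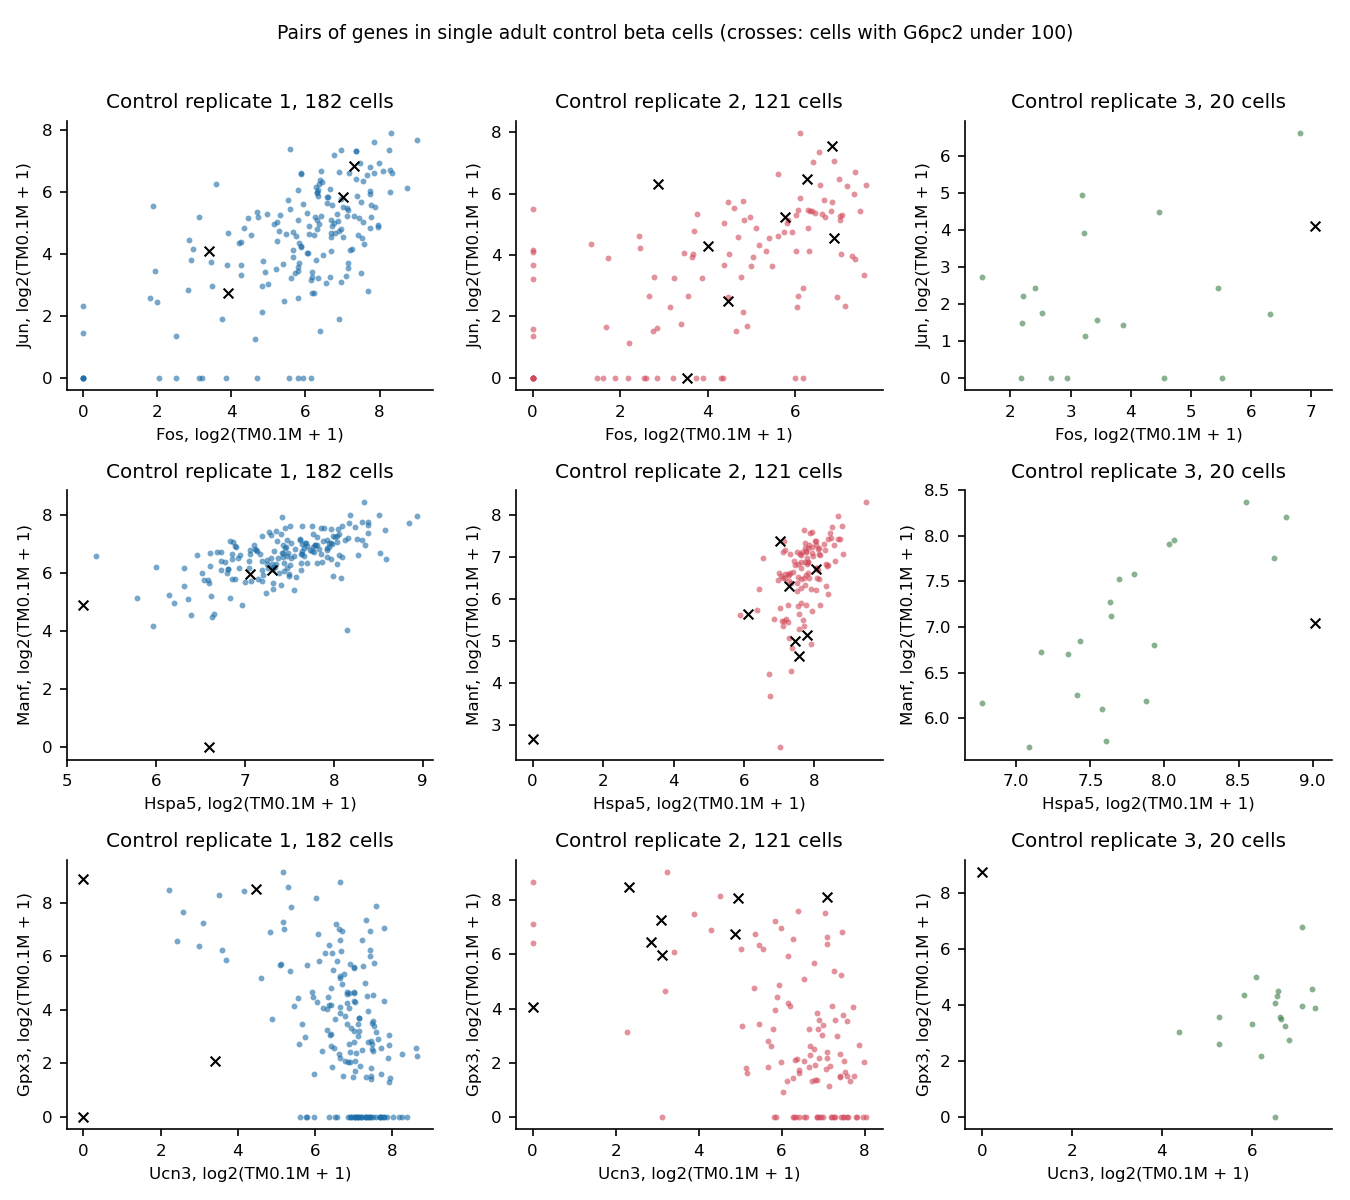
Each point is 1 adult control beta cell deep enough for thinning (182, 121 and 20 cells), with log2(deposited value + 1) on both axes for Fos and Jun, Hspa5 and Manf, and Ucn3 and Gpx3, 1 column per library; crosses are cells with G6pc2 under 100. The first and second pairs rise together, and cells with the least Ucn3 carry more Gpx3 in controls 1 and 2.

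The 3 anchor genes of these sets were only weakly related to one another. Other members of the sets differed in this, as G6pc2 gave 0.25, 0.35 and -0.23 with Hspa5 and 0.32, 0.43 and 0.08 with Manf. Fos against Hspa5 gave 0.08, 0.07 and 0.19, Fos against Ucn3 gave -0.08, -0.13 and -0.33, and Hspa5 against Ucn3 gave 0.20, 0.23 and -0.33. Ucn3 was also weakly related to insulin itself, at 0.05, -0.10 and -0.09 with Ins2 and 0.16, 0.14 and 0.03 with Ins1. Hspa5 had somewhat higher values with Ins1, at 0.27, 0.32 and 0.28. The insulin values here were not thinned, and they fell with the cell's UMIs outside the hormone genes. Those correlations were -0.75, -0.49 and -0.94 for Ins1 and -0.88, -0.80 and -0.98 for Ins2. How Ucn3 and Hspa5 relate to insulin apart from depth was not tested. With the cell's UMIs outside the hormone genes, correlations were 0.16, 0.32 and 0.12 for Ucn3 and -0.17, 0.24 and -0.34 for Hspa5. They were -0.05, 0.03 and -0.07 for Fos and -0.05, -0.34 and -0.29 for Gpx3. Nupr1, although as variable as Gpx3, did not rise with it (-0.06, -0.20 and -0.40).

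The remaining anchors gave smaller sets. Txnip rose with Gpx3 alone (0.30, 0.30 and 0.32; 1 gene, 0.0368%, and 0 within index pools or without hormone-rich cells) and was opposed by 2 genes (0.0737%), the tetraspanin Cd63 (-0.37, -0.38 and -0.50) and Spc25 (-0.34, -0.39 and -0.43). Slc2a2 was accompanied by 10 genes (0.368%), G6pc2 first (0.57, 0.60 and 0.60), but by 1 in ranks and 5 without the Chga-low cells. Iapp was accompanied by 6 genes (0.221%), among them Chga (0.70, 0.54 and 0.56), and by 0 without the Chga-low cells, of which 3 were deep enough to enter the correlations (a new random thinning of all cells also shared 4 of the 6 genes). Pyy was accompanied by Rbp4 (0.35, 0.52 and 0.58, 1 gene, 0.0368%) and opposed by Tmem215 (1 gene, 0.0368%). Both stayed within index pools, but 0 genes were left in ranks, without hormone-rich cells or without the cells with G6pc2 under 100. Without those low cells, Pyy gave 0.42, 0.43 and -0.03 with Rbp4 and -0.37, -0.39 and 0.25 with Tmem215. Rpl13, a ribosomal protein gene taken as a housekeeping reference, was accompanied by 0 genes (0.0%), Rpl27a coming closest at 0.35, 0.27 and 0.50.

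Whether cells differed more from one another in control libraries than in others was tested with 1 value per library, by an exact two-sided permutation test over libraries for 7 measures in each of 2 comparisons, adjusted together by Benjamini-Hochberg. Against STZ libraries, 0 of 7 measures passed after adjustment (0.0%), and against pups 0 of 7 (0.0%); unadjusted, 2 of the 14 had a p under 0.05. The SD across cells of the immediate early score, the mean of the list's log2 values, was 0.509, 0.518 and 0.490 in controls 1, 2 and 3. It was 0.314 on day 6, 0.176 in the second day 12 library, 0.451 on day 30, 0.367 on day 42, 0.307 in month 5 and 0.425 in month 9 after STZ. All 3 controls lay above all 6 STZ libraries (0.506 ± 0.014 against 0.340 ± 0.099, SD, n = 3 and 6; exact p = 0.0357, adjusted 0.25). The median coefficient of variation over genes was 0.681 ± 0.036 against 0.594 ± 0.040 (exact p = 0.0238, adjusted 0.25). The spread of the maturity score (0.595 ± 0.025 against 0.543 ± 0.102, exact p = 0.429) and of the ER score (0.457 ± 0.052 against 0.459 ± 0.075, exact p = 0.964) overlapped between the groups. Libraries with fewer than 10 beta cells at the thinned depth, month 2 and the first of day 12, gave no value, and the same 3 control libraries serve in both comparisons.

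Against P12 and P21, where 3 libraries against 3 cannot give a p below 0.1, the SD across cells of the maturity score was 0.595 ± 0.025 in adult controls against 0.519 ± 0.024 in pups (SD, n = 3 and 3; exact p = 0.1, adjusted 0.35). Without the Chga-low cells the difference in maturity spread was -0.000894 (exact p = 1). For the immediate early score the SD across cells was 0.506 ± 0.014 against 0.428 ± 0.025 (exact p = 0.1, adjusted 0.35). In both the groups did not overlap, and in the other 5 measures they did. None of these differences passed the test.

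The genes that distinguished control cells from one another were then looked up as levels, in UMIs summed over the beta cells of each library and tested with edgeR across all genes. Against 7 STZ libraries of different times taken as 1 group, 360 of 10097 genes passed at an adjusted p under 0.05 (3.57%; 225 higher after STZ, 2.23%, and 135 lower, 1.34%). Ucn3 was at 9.83, 9.57 and 9.41 log2 CPM (counts scaled to the library's normalised total) in controls 1, 2 and 3. It was at 6.60 on day 6, 5.61 and 4.73 on day 12, 6.31 on day 30, 6.59 on day 42, 7.86 in month 5 and 6.44 in month 9. All STZ libraries lay below all controls (log2 fold change -3.01, SE 0.37, edgeR adjusted p = 0.000159). Slc2a2 fell from 8.89 to 9.25 in controls to between 4.82 and 6.89 (-2.75, SE 0.28, edgeR adjusted p = 3.02e-05), and G6pc2 from 11.65 to 12.14 to between 8.25 and 10.68 (-1.97, SE 0.34, adjusted p = 0.00251).

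Of the 16 genes that rose with Ucn3 between control cells, 13 were lower after STZ and 0 higher, with a median log2 fold change of -1.53 against -0.00465 over all genes. Trpm5 (-3.98, SE 0.35, edgeR adjusted p = 7.14e-06), Sytl4 (-2.02, SE 0.35, adjusted p = 0.0027) and Slc30a8 (-1.80, SE 0.23, adjusted p = 0.000212) were among the 13, while Cd63, Emb and Wbp5 lay at 0.12, 0.02 and -0.21 with adjusted p of 0.842, 0.978 and 0.574. The control libraries that chose the set also enter this comparison. Of the 3 genes opposed to Ucn3, 2 were higher after STZ. Gpx3 was at 8.11, 7.87 and 8.01 in controls and between 10.46 and 11.54 in all STZ libraries (3.12, SE 0.25, edgeR adjusted p = 1.75e-06). Rbp4 was at 6.05, 6.49 and 5.70 in controls and between 8.54 and 10.51 after STZ (3.27, SE 0.38, adjusted p = 0.000106). Snhg18 had 1.28 (SE 0.36, adjusted p = 0.0611). Gpx3 and Rbp4 were thus above every control library in every STZ library, and more cells with the RNA and more RNA per cell cannot be told apart in such sums.

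Txnip had a higher mean after STZ (1.92, SE 0.39, edgeR adjusted p = 0.00823), from 8.20 to 8.78 in controls and from 8.20 to 11.11 after STZ. The groups overlapped through the day 6 library, and the call was lost without control 2 (adjusted p = 0.0755), without control 3 (0.0567) and with the replicate number as a block (0.0955). Ins1 was lower by a small margin (-0.82, adjusted p = 0.0451), a call lost without any 1 of the controls (0.107 to 0.136) and in 8 of 15 alternatives in all. Among the maturity list, 11 of 16 genes were lower and 1, Ucp2, higher (median -1.48); among 15 immature and dedifferentiation genes, 9 were higher and 0 lower (median 1.85). Cox6a2 (-3.67, SE 0.62, adjusted p = 0.00231), variable between control cells, was lower as well.

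Genes of the Fos and Hspa5 sets were counted in the same way, beside 2.23% of all genes higher and 1.34% lower after STZ. With 5 and 20 genes in the sets, their counts were not tested against those shares. Of the 5 genes of the Fos set 0 passed in either direction (edgeR; median log2 fold change -0.81), and Fos itself ranged from 7.67 to 9.41 in controls and from 1.09 to 9.09 after STZ (-0.75, SE 0.72, adjusted p = 0.746). Of the 20 genes of the Hspa5 set 2 were higher, Ssr4 and Tmed3, and 0 lower (median 0.28), and Hspa5 had 0.58 (adjusted p = 0.252). Of 16 immediate early genes 0 passed, and of 27 ER genes 1, Ero1lb, was lower. Nupr1 had -1.29 (adjusted p = 0.122). Over all genes, 1463 had an unadjusted p under 0.05 in edgeR and DESeq2 called 621.

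RNA of other cell types differed between these groups too. The library medians of summed delta-cell markers, a list that holds Rbp4, were 36.0 to 37.0 in controls and 87.8 to 316 after STZ, those of pancreatic polypeptide-cell markers 274 to 463 and 351 to 1538, those of acinar markers 1134 to 4423 and 2187 to 5263, and those of immune markers 2.88 to 10.04 and 10.3 to 40.2. Median UMIs per beta cell were 57361 to 69993 and 46706 to 101422. Without hormone-rich cells in either group, the changes were -2.64 for Ucn3, -2.27 for Slc2a2, -1.42 for G6pc2, 3.43 for Gpx3 and 3.92 for Rbp4, each with an edgeR adjusted p of 0.00372 or less. Only 4 STZ libraries kept at least 10 beta cells in that setting. The other sources were not tested.

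**Figure D5:**
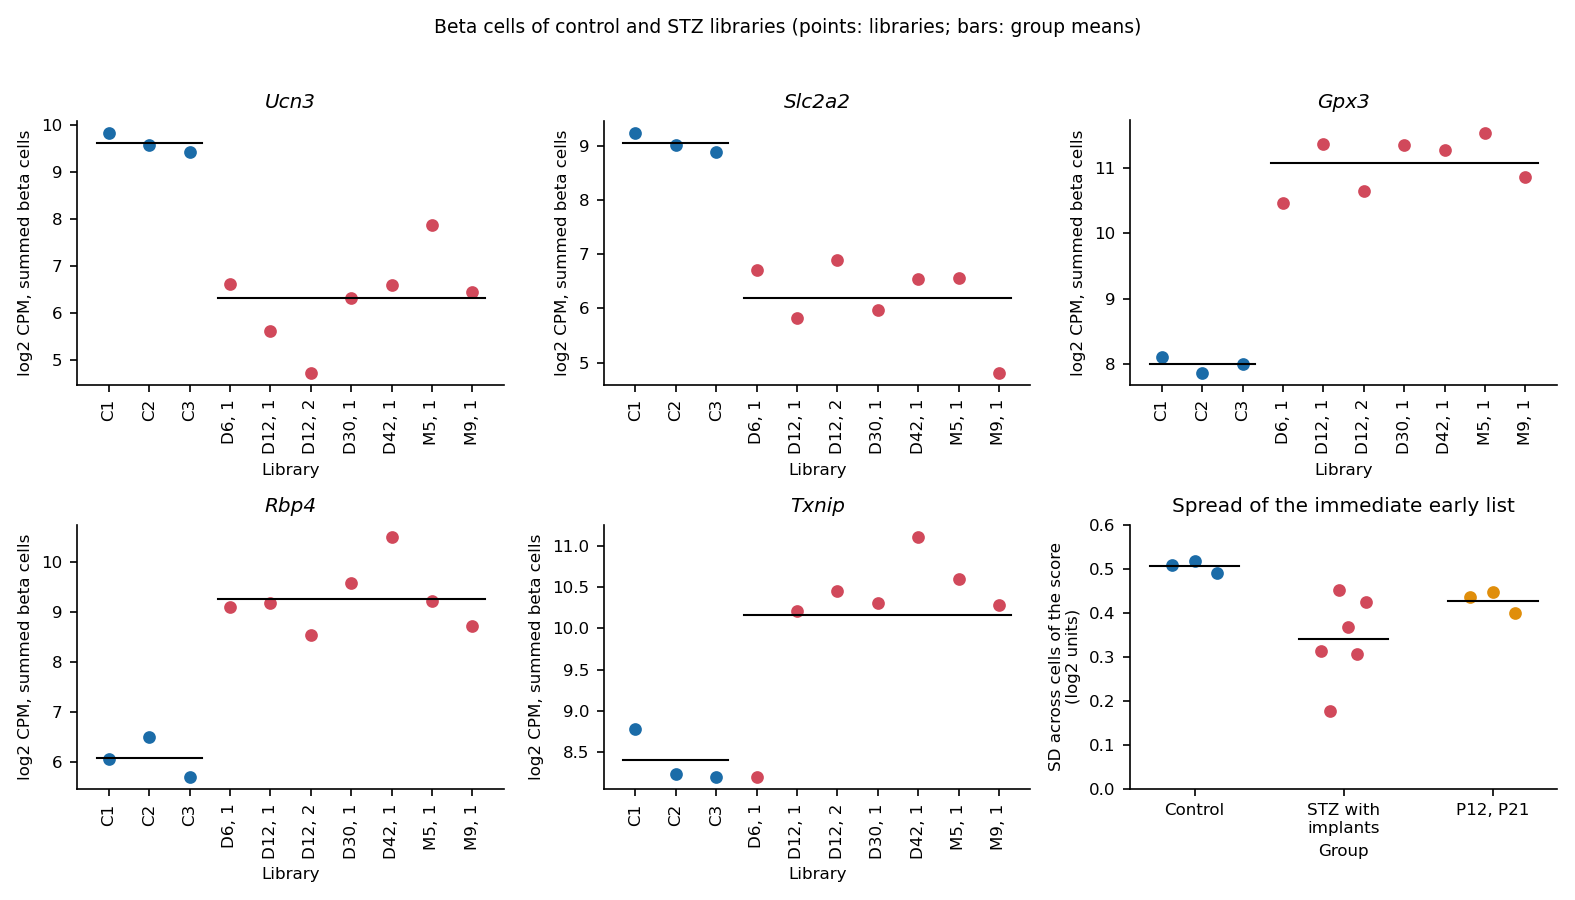
Log2 CPM of summed beta cells for Ucn3, Slc2a2, Gpx3, Rbp4 and Txnip in 3 control libraries (C1 to C3, blue) and 7 STZ libraries (named by time and replicate, red), and, in the last panel, the SD across cells of the immediate early score in 3 control, 6 STZ and 3 pup libraries; bars are group means. Ucn3 and Slc2a2 lie lower and Gpx3 and Rbp4 higher in all STZ libraries than in all controls, and the control SDs lie between 0.490 and 0.518, above all others.

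Between control and P12 and P21 beta cells, a comparison with fewer libraries that uses the same 3 controls, 21 of 11558 genes passed in edgeR (0.182%; 6 higher in pups, 0.0519%, and 15 lower, 0.13%). Rbp4 was at 6.11, 6.53 and 5.74 log2 CPM in controls and at 8.02, 8.28 and 8.71 in the pup libraries (2.19, SE 0.26, edgeR adjusted p = 0.00531, and 0.224 with the replicate number as a block). Rbp4 was thus above all controls in all pup libraries. Nupr1 was at 6.70, 6.80 and 9.15 in controls and at 1.04, 2.92 and 4.38 in pups (-4.60, SE 0.76, adjusted p = 0.0307), a call lost with the block (0.319) and without controls 2 or 3 or either P12 library (0.0648 to 0.169). Of genes variable between adult cells, Hspa1a (-2.89, SE 0.43, edgeR adjusted p = 0.0213) was lower in pups and Atp11a (1.60, SE 0.21, adjusted p = 0.00586) higher. Ucn3 was 9.66 on average in both groups (0.00, adjusted p = 0.999). Of the 16 genes of the Ucn3 set, 20 of the Hspa5 set and 5 of the Fos set, 0 passed (medians -0.20, -0.23 and -0.25, against 0.01 over all genes); 1088 genes had an unadjusted p under 0.05, and DESeq2 called 166. Library medians of summed acinar markers were 61.5 to 936 in pups against 1134 to 4423 in controls, and those of delta-cell markers 44.1 to 243 against 36.0 to 37.0; their part was not tested.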

How the data were processed

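Single-cell RNA was measured in 17 libraries, of which 13 in the control, STZ and P12 or P21 groups are used here. The authors deposited UMI counts per gene and cell (40824 genes by 2999 cells) and a table of signal values, UMIs scaled to 100000 of what a cell holds outside Yam1 and 7 islet hormone genes, a scaling that was recomputed with 0 of 13934834 values off by more than 0.01. The submitters' processing notes name TopHat2 2.1.0, featureCounts 1.5.3, SAMtools 1.3.1, UMI-tools 0.5.0 and the mm10 build, without their role or order. Cells reached the tables already selected, and 6 rows with no symbol were kept under their gene identifiers. Mitochondrial genes by symbol numbered 0, so no mitochondrial filter was possible.

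Cells were thinned once at random to 18536 UMIs outside the hormone genes, the 10th percentile of control beta cells. Genes with a mean of at least 1 thinned UMI in each control library were kept, with a limit of 0.7 for the coefficient of variation and of 0.3 for correlations (pseudocount 1). Levels were tested on UMI counts summed over the beta cells of each library with at least 10 such cells, which left out STZ month 2 with 6 cells, by edgeR 4.0.16 (TMM, filterByExpr, quasi-likelihood test, Benjamini-Hochberg over all genes), with DESeq2 1.42.0 as an alternative, in R 4.3.3. Python 3.11.15 with NumPy 2.4.6, pandas 2.3.3, SciPy 1.17.1 and matplotlib 3.10.9 did the rest. Scripts were tested on simulated data. Index pools were read from prefixes of the raw file names in the deposited metadata, whose header does not call them pools. UMIs of the 3 control libraries total 20520638, 18703989 and 1420536.

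The genes named are the markers, the anchors, the 20 most variable genes, up to 5 most variable members of each list, up to 10 genes most like each anchor (5 for negative ones) and up to 3 highest markers of each other cell type. Gene lists, members and these rules were chosen with earlier results of these data known. The rest of each co-varying set, H2-Aa, Cd74, Clu, Spp1 and Ucp2 where not in that rule were named after their values were seen. Alternatives are given in the closing section. A gene among the variable ones is not reported here. The month 2 STZ libraries without implants and P3 were not used here.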

Additional observations from a re-analysis of the deposited data

Results flagged for a closer look

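Of 18 genes or spread measures, each checked over the STZ libraries for a single library far from the others, 3 held such a library. Chance gives about 1 in 20 for separate checks of like libraries. These checks share their libraries, which differ in time after STZ, so that rate does not apply directly. Fos was at 1.09 log2 CPM in the second day 12 STZ library, against 6.24 in the nearest of the other 6. Txnip was at 8.20 log2 CPM in the day 6 STZ library, the single library of that day, against 10.2 in the nearest of the others. The SD across cells of the ER score was 0.314 in the second day 12 STZ library, against 0.444 in the nearest of 5 others.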

How the results depend on the processing

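The count of 703 variable genes was 1670 at a limit of 0.5, 72 at a limit of 1.0, 19 at a mean of at least 3, 88 at a depth of 9268 UMIs and 906 to 1384 without 1 control library. Over all anchors, 53 genes were counted as co-varying; this was 20 by Spearman, 18 at a limit of 0.4, 32 without hormone-rich cells, 23 without the cells low in G6pc2, 31 without those low in Chga, and 80 to 128 without 1 library (fewer libraries have to pass). The 360 STZ calls were 621 with DESeq2, 674 with no filter, 180 without hormone-rich cells and 150 to 389 without 1 library, lowest without control 2 (175 without control 1, 225 without control 3). The 21 P12 and P21 calls were 166 with DESeq2, 370 with no filter, 221 without hormone-rich cells and 6 to 301 without 1 library: 301 without P21, 36 without control 1, 8 without the first P12 library, and 6 without control 2, control 3 or the second P12 library. Removing hormone-rich cells left 4 STZ and 2 pup libraries with at least 10 beta cells, as 94 of 101 P21 beta cells were hormone-rich. That setting thus has fewer libraries as well as fewer cells. The cause of these shifts was not tested.

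Deviations of same-numbered control and P12 libraries had correlations of -0.041 and 0.027 over 11558 genes. P12 has 2 libraries, and STZ and P21 libraries were not checked. Whether the replicate number pairs libraries is therefore not decided by these values. With the replicate number as a block, 154 STZ calls and 0 P12 and P21 calls remained (edgeR). In that setting Nupr1 after STZ was at 0.0131 and Ucn3 in pups at -0.156 log2, and 0 spread measures passed within replicate numbers. Ucn3, Slc2a2, G6pc2, Gpx3 and Rbp4 after STZ kept direction and call in all 16 alternatives each.

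Differences near 0 changed sign. For spread after STZ without hormone-rich cells, where 3 STZ libraries were left, the difference was 0.0176 for maturity and -0.110 for ER. It was 0.0212 for ATF4 targets and -0.0811 for heat shock. Without the cells low in Chga, maturity gave 0.0223. Without 1 library, differences ran from -0.0166 to 0.0322 for ER, -0.0857 to 0.112 for ATF4 targets, -0.0225 to 0.0414 for ribosomal proteins and -0.0148 to 0.0354 for heat shock after STZ, and from -0.00512 to 0.0683 for ribosomal proteins in pups. In pups, Ucn3 gave -0.0941 to 0.139, Fos -0.891 to 0.0573 and Hspa5 -0.137 to 0.346 log2, and Ucn3 gave -0.0028 without the cells low in Chga. Depth limits the call of single low genes: at a mean of 1 to 2 thinned UMIs, 51.2% of genes passed the limit.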

Other observations

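Dividing cells were rare among control beta cells. With at least 3 UMIs of both Mki67 and Top2a, the proliferation antigen and a topoisomerase of dividing cells, 2 of 209 cells in control 1 (0.957%, exact 95% interval 0.116 to 3.41%), 1 of 129 in control 2 (0.775%, 0.0196 to 4.24%) and 0 of 21 in control 3 (upper bound 16.1%) were counted.

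Whole-list scores, the mean log2 value of a list's genes in a cell, moved together between some lists. Maturity and granule scores, which share 4 genes, correlated at 0.72, 0.67 and 0.79 in controls 1, 2 and 3, and granule and ER scores at 0.53, 0.62 and 0.29. Maturity and immature scores went opposite ways (-0.40, -0.51 and -0.45), where 2 of the 20 genes of the immature list passed the filter. Cells far below the rest entered these correlations. In control 1 the lowest granule score was 1.59 against a mean of 6.17 (SD 0.55), and the lowest maturity score 0.752 against 4.50 (SD 0.58). Values without the cells low in Chga or G6pc2 are not given for list scores. Oxidative phosphorylation correlated with ER folding at 0.30, 0.41 and 0.59 and with ribosomal proteins at 0.27, 0.55 and 0.32, but with maturity at 0.14, 0.33 and 0.16. Ribosomal protein genes took a median 8.76%, 7.23% and 6.66% of a cell's UMIs, and oxidative phosphorylation genes 3.3%, 3.12% and 3.02%. These are descriptions over 182, 121 and 20 cells, except the shares, which use all cells.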
